A study of Drosophila melanogaster with 18 samples.

Results

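Members of the vacuolar proton pump were followed as a gene group in fat bodies of Drosophila melanogaster larvae. The group held every gene of the deposited exon count tables whose FlyBase symbol begins with Vha, and these were 33 of 17494 genes. Of the 33, 32 were matched by their FlyBase gene identifier, and Vha44 was matched by its position because its identifier had since been replaced. The genes encode the subunits of the V-ATPase, with 13 genes for the V1 sector, 18 for the V0 sector and 2 for accessory proteins.

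The V-ATPase is a rotary enzyme of endosomes, lysosomes and some plasma membranes. Its cytosolic V1 sector, built of subunits A to H, hydrolyses ATP and turns a central stalk, and its membrane sector V0, built of subunits a, c, c'', d and e, carries protons across the membrane. The pump acidifies the lysosome, on which the breakdown of autophagic cargo depends, and it serves as a platform through which lysosomal amino acids are sensed by mTORC1. In flies the pump is also abundant in the plasma membrane of Malpighian tubule and midgut cells, and many of its subunits are encoded by several gene copies, some of them known mainly from the testis.

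RNA-seq was made in 2 libraries for each of 6 groups of last instar larvae. Males at the feeding stage (L3F), with RNA taken from pooled fat bodies after removal of the gonads, carried the fat body driver cgGal4 together with both an M1BP RNAi transgene and a tagged cDNA of the vertebrate zinc finger protein ZKSCAN3 (M1BP RNAi + ZKSCAN3), the RNAi transgene alone (M1BP RNAi), the ZKSCAN3 cDNA alone (ZKSCAN3), or neither (WT). The driver was thus common to all 4 male genotypes. Females were wild type larvae without a driver, taken at the wandering stage (L3W), when developmental autophagy sets in, or at L3F. M1BP is the fly factor that binds the core promoter element Motif 1. The comparisons addressed how subunit genes responded to M1BP depletion, to ZKSCAN3, and to the developmental stage. ChIP-seq of HA-tagged ZKSCAN3 and of its relative ZKSCAN4 had been made in stable lines of S2 cells, an embryo-derived fly cell line, in which copper induced the transgene. The labels give no separate cultures or parents for the libraries, so p-values measure the spread between these libraries.

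The libraries held 53462739 to 76798943 counts, and the 10 most abundant genes took 34.7 to 52.7% of them. M1BP itself had 11.03 and 12.7 TPM (a level normalised to exon length and library total) with M1BP RNAi + ZKSCAN3, 9.76 and 8.88 with M1BP RNAi, 13.7 and 15.2 with ZKSCAN3 and 16.3 and 16.5 in WT fat bodies. Its transcript fell in M1BP RNAi against WT (log2 fold change −1.27, SE 0.14, adjusted p = 0.00776, edgeR quasi-likelihood F-test, adjusted by Benjamini-Hochberg), and in M1BP RNAi + ZKSCAN3 against WT (−0.96, adjusted p = 0.0158). With 1 library left out the first value ranged over −1.41 to −1.21, and its adjusted p was 0.0831 without WT replicate 1, 0.103 without WT replicate 2 and 0.0703 without M1BP RNAi replicate 1. The second was not called without either WT library (adjusted p 0.131 and 0.171) or without M1BP RNAi + ZKSCAN3 replicate 2 (0.105). The log2 fold changes of M1BP rest on counts scaled between libraries by TMM, and its TPM values show smaller falls. In M1BP RNAi against WT the median log2 fold change of all genes was 0.11 under TMM and 0.52 in TPM. In M1BP RNAi + ZKSCAN3 against WT it was 0.015 and 0.44. The fat body genes on the marker list, led by the larval serum proteins, summed to between 149608 and 285940 TPM in every library.

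Some libraries stood apart in markers of other tissues. Summed over 20 testis genes, M1BP RNAi replicate 1, labelled male without gonads, had 216 TPM and M1BP RNAi replicate 2 had 4.58 TPM. Among the libraries labelled female, L3F replicate 2 had 46.3 TPM and L3F replicate 1 had 1.64 TPM. The source of the testis transcripts in these libraries was not tested. Malpighian tubule genes, 8 in number, summed to 95.1 and 71.0 TPM at L3W, against 233 and 748 TPM at L3F. Midgut genes, 14 in number, summed to 1942 and 460.4 TPM at L3W, against 2799 and 11.4 TPM at L3F. Salivary gland genes, 10 in number, summed to 1422 and 1905 TPM with M1BP RNAi + ZKSCAN3, 1523 and 91.8 with M1BP RNAi, 31.2 and 63.9 with ZKSCAN3 and 30.9 and 14.4 in WT fat bodies, and to 36.7 and 135.0 TPM at L3W, against 207 and 1983 TPM at L3F. None of these genes was at 0 in every library. In bulk tissue, fewer cells of a type and less RNA per cell cannot be told apart.

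In this tissue the 33 genes fell into an abundant set and a set that was nearly absent. Of the 33, 16 exceeded 10 TPM in every library, and these held the most abundant copy of each subunit. A further 15 had a median under 1 TPM, and only Vha100-5, a copy of subunit a, with 2.44 to 5.33 TPM, and Vha68-1, a copy of subunit A, with 1.46 to 6.21 TPM, lay between. Vha16-1, which encodes the proteolipid c of the proton-carrying ring, was the most abundant member and ranked 232 of 17494 genes by mean TPM. VhaM9.7-c, a copy of subunit e, was the least abundant of the 16 and ranked 2887.

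**Figure D1:**
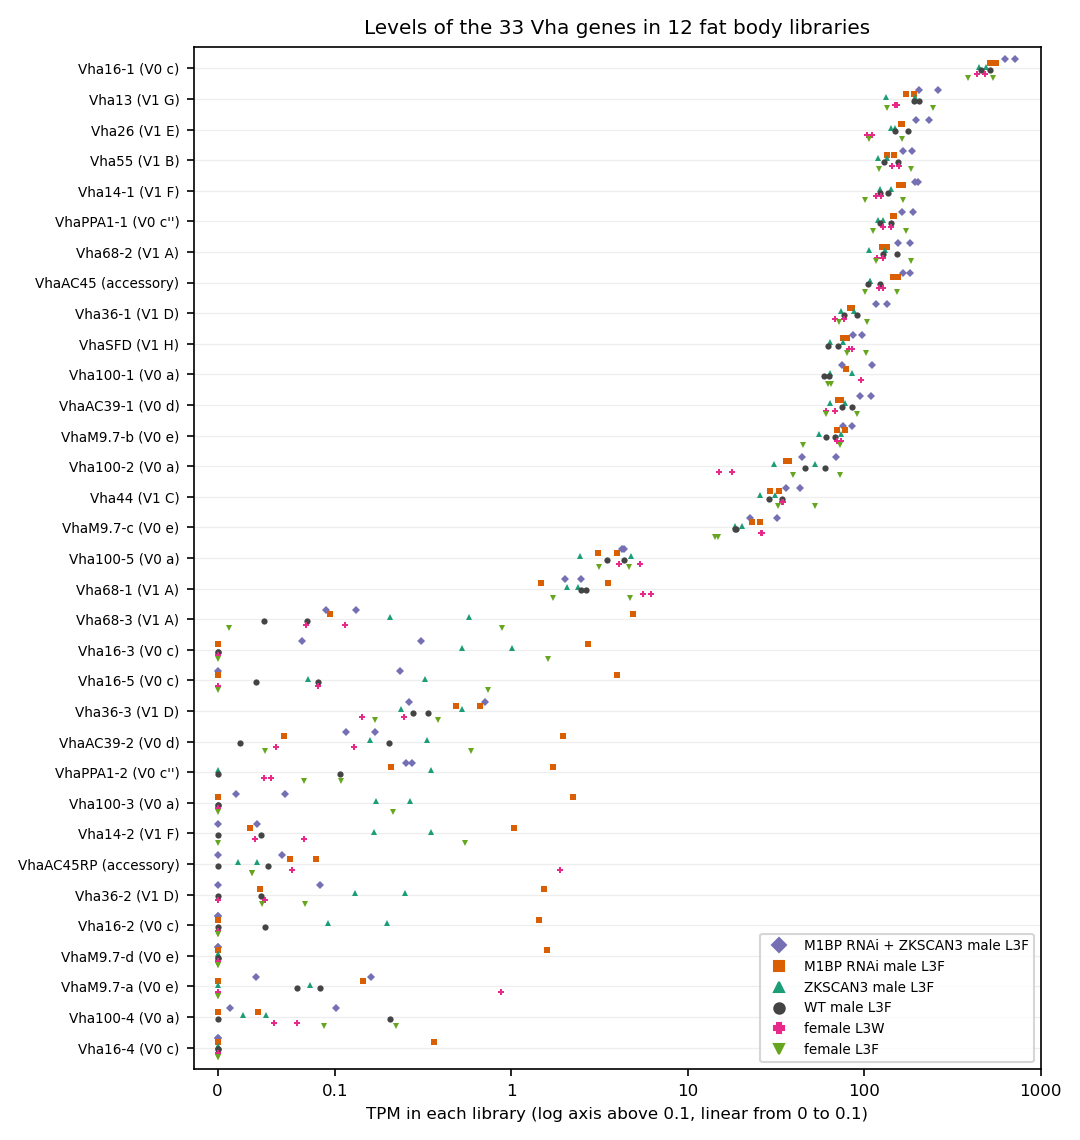
Levels of the 33 Vha genes, 1 row a gene with its sector and subunit, in TPM on an axis that is logarithmic above 0.1 and linear below. Each point is a library, coloured and shaped by group (2 libraries a group). The 16 upper genes lay above 10 TPM in all 12 libraries, and 15 of the lower genes had a median under 1 TPM.

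In the V1 sector, the catalytic subunit A came mainly from Vha68-2, with 156 and 181 TPM in M1BP RNAi + ZKSCAN3, 135 and 125 with M1BP RNAi, 106 and 131 with ZKSCAN3 and 153 and 129 in WT fat bodies, and 128 and 119 at L3W and 116 and 183 at L3F in females. Vha55, the only gene for the nucleotide-binding subunit B, had 166 and 186 TPM in M1BP RNAi + ZKSCAN3, 148 and 134 with M1BP RNAi, 119 and 134 with ZKSCAN3 and 155 and 129.9 in WT fat bodies, and 158 and 143 at L3W and 121 and 183 at L3F in females. In TPM, Vha68-2 was highest in L3F replicate 2 and Vha55 in M1BP RNAi + ZKSCAN3 replicate 2, and their levels lay within 1.73-fold and 1.56-fold over the 12 libraries. For the regulatory subunit C, Vha44 had 35.98 and 43.1 TPM in M1BP RNAi + ZKSCAN3, 32.7 and 29.3 with M1BP RNAi, 25.6 and 31.4 with ZKSCAN3 and 34.3 and 29.02 in WT fat bodies, and 34.4 and 34.2 at L3W and 32.3 and 52.4 at L3F in females. The central stalk subunit D came from Vha36-1, with 117 and 135 TPM in M1BP RNAi + ZKSCAN3, 85.5 and 83.4 with M1BP RNAi, 73.5 and 87.9 with ZKSCAN3 and 90.7 and 76.3 in WT fat bodies, and 76.4 and 68.6 at L3W and 71.9 and 104 at L3F in females. Vha14-1, which encodes the stalk subunit F, had 203 and 194 TPM in M1BP RNAi + ZKSCAN3, 158 and 166 with M1BP RNAi, 123 and 142 with ZKSCAN3 and 137 and 122 in WT fat bodies, and 124 and 117 at L3W and 102 and 166 at L3F in females. In TPM, Vha36-1 and Vha14-1 were higher in both M1BP RNAi + ZKSCAN3 libraries than in any other library, an order that the library-normalised counts of the male libraries did not keep, and Vha44 was highest in L3F replicate 2. The peripheral stalk subunits E and G are single-copy genes. Vha26, for subunit E, had 196 and 233 TPM in M1BP RNAi + ZKSCAN3, 164 and 161 with M1BP RNAi, 141 and 149 with ZKSCAN3 and 178 and 148 in WT fat bodies, and 111 and 103 at L3W and 106 and 163 at L3F in females. Vha13, for subunit G, had 206 and 261 TPM in M1BP RNAi + ZKSCAN3, 173 and 191 with M1BP RNAi, 133 and 194 with ZKSCAN3 and 205 and 191 in WT fat bodies, and 153 and 149 at L3W and 134 and 245 at L3F in females. VhaSFD, for the regulatory subunit H, had 86.03 and 96.6 TPM in M1BP RNAi + ZKSCAN3, 80.02 and 76.2 with M1BP RNAi, 75.7 and 64.2 with ZKSCAN3 and 71.1 and 62.2 in WT fat bodies, and 85.1 and 81.5 at L3W and 79.9 and 102 at L3F in females. Vha26 was lowest in L3W replicate 2, while VhaSFD varied by only 1.64-fold.

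In the V0 sector, Vha16-1 for subunit c had 629 and 718 TPM in M1BP RNAi + ZKSCAN3, 555 and 517 with M1BP RNAi, 447 and 491 with ZKSCAN3 and 518 and 459 in WT fat bodies, and 482 and 435 at L3W and 387 and 540.4 at L3F in females. VhaPPA1-1, for the related ring subunit c'', had 164 and 189.9 TPM in M1BP RNAi + ZKSCAN3, 148 and 145 with M1BP RNAi, 120.0 and 128 with ZKSCAN3 and 141 and 123 in WT fat bodies, and 142 and 128 at L3W and 112 and 173 at L3F in females. VhaAC39-1, for subunit d, which links the ring to the stalk, had 94.2 and 109 TPM in M1BP RNAi + ZKSCAN3, 73.5 and 70.6 with M1BP RNAi, 63.98 and 78.1 with ZKSCAN3 and 84.7 and 74.9 in WT fat bodies, and 68.5 and 60.4 at L3W and 60.9 and 91.1 at L3F in females. All 3 genes were highest in TPM in M1BP RNAi + ZKSCAN3 replicate 2. The small subunit e came mainly from VhaM9.7-b, with 75.3 and 85.4 TPM in M1BP RNAi + ZKSCAN3, 70.2 and 77.8 with M1BP RNAi, 55.7 and 73.5 with ZKSCAN3 and 68.6 and 60.5 in WT fat bodies, and 74.1 and 70.2 at L3W and 45.03 and 72.9 at L3F in females. VhaAC45, which encodes the accessory protein Ac45, had 165 and 181 TPM in M1BP RNAi + ZKSCAN3, 155 and 145 with M1BP RNAi, 108 and 108 with ZKSCAN3 and 123 and 105 in WT fat bodies, and 127 and 121 at L3W and 102 and 154 at L3F in females. Over the 16 genes, the fold between the highest and lowest of the 12 libraries ran from 1.56 for Vha55 to 2.27 for Vha26 in 15 of them, and was 4.86 for Vha100-2.

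Where a subunit had several copies, 1 copy supplied nearly all transcripts. Per family and library, the leading copy held 94.2 to 98.8% of the TPM of subunit A, 97.5 to 99.8% of subunit D, 99.3 to 100% of subunit F, 98.5 to 100% of subunit c, 98.8 to 100% of subunit c'' and 97.4 to 99.97% of subunit d. Subunits a and e differed from these. VhaM9.7-b held 72.0 to 83.7% of subunit e, with VhaM9.7-c nearly all of the rest. Vha100-1 held 44.5 to 83.5% of subunit a, the large V0 subunit that carries the proton channels and directs the pump to its membrane.

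The summed level of all 33 genes was 2478 and 2798 TPM with M1BP RNAi + ZKSCAN3, 2150.2 and 2066 with M1BP RNAi, 1737 and 1956 with ZKSCAN3 and 2104 and 1845 in WT fat bodies. In females it was 1917 and 1778 TPM at L3W, against 1594 and 2394 TPM at L3F. The M1BP RNAi + ZKSCAN3 libraries were the highest of the 12 in TPM, whereas under TMM, a scaling of the counts by library, 11 of the 16 abundant members had lower values in this group than in WT. The span between the L3F libraries was wider than that between any other pair of replicates, and 14 of the 16 abundant members were higher in L3F replicate 2 than in replicate 1, by a median of 1.49-fold on library-normalised counts.

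M1BP RNAi fat bodies had somewhat lower normalised levels of the abundant subunit genes than WT, and no member passed the test. Of 26 members with enough counts, 0 were called at an adjusted p under 0.05 and 0 at the stricter threshold of 0.001, while 8.22% and 0.0341% of 11723 genes were called. By the unadjusted p, 9 members lay under 0.05, beside 29.6% of all genes, and DESeq2 called 8, with 6 lower (Vha100-2, Vha26, Vha44, Vha55, Vha68-2 and VhaAC39-1) and 2 higher (Vha68-3 and Vha100-3), beside 23.9% of all genes. The 2 higher genes rested on M1BP RNAi replicate 1, since the M1BP RNAi libraries had 348 and 10 counts of Vha68-3 and 191 and 0 of Vha100-3. The median log2 fold change was −0.27 over the 26 members and 0.11 over all genes. All 16 abundant members had negative values, with a median of −0.37, under TMM scaling, whereas on the TPM scale their median was 0.08, with 9 positive and 7 negative, where the median of all genes was 0.52. Under TMM, DESeq2 size factors and TPM alike, each of the 16 lay below the median of all genes, a reference not matched for level. The 16 also shifted together between replicates of 1 genotype. On library-normalised counts all 16 were higher in M1BP RNAi replicate 2 than in replicate 1, by a median of 1.13-fold, and 2 of the 16 were higher in WT replicate 2 than in WT replicate 1. Markers of other tissues moved in both directions between these groups. The 8 Malpighian tubule markers summed to 252 and 220.0 TPM in M1BP RNAi and 402 and 299 TPM in WT fat bodies, and 8 muscle markers to 32.6 and 52.8 TPM in M1BP RNAi and 111 and 167 TPM in WT. The 14 midgut markers summed to 3018 and 1444 TPM in M1BP RNAi and 442 and 362 TPM in WT. The 9 hemocyte markers summed to 1286 and 670.3 TPM in M1BP RNAi and 332 and 412 TPM in WT. Within the hemocyte list Pxn went the other way, with 12151 and 14909 raw counts in M1BP RNAi and 48706 and 70703 in WT. Within the muscle list TpnC73F did so (296 and 493 against 215 and 272), and up, wupA and Prm overlapped in raw counts. In the Malpighian tubule list Lkr and SecCl went the other way, and CapaR, Irk2 and ZnT35C overlapped. Of the midgut list, Jon25Bi, Jon25Bii, Jon65Aiii, Jon65Aiv and alphaTry were higher in both M1BP RNAi libraries, and no other gene was. The part of these marker lists in the result was not tested.

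The smallest adjusted p in M1BP RNAi against WT belonged to VhaAC39-1, with 58.3 and 65.9 CPM in M1BP RNAi and 96.4 and 90.9 CPM in WT fat bodies (CPM, counts relative to the library total, scaled by TMM). Its log2 fold change was −0.59 (SE 0.16, adjusted p = 0.0719). The groups did not overlap. Vha68-2 had 165 and 180.2 CPM in M1BP RNAi and 268 and 240.2 CPM in WT fat bodies, a log2 fold change of −0.56 (SE 0.17, adjusted p = 0.0923). Vha100-2 had 53.3 and 60.2 CPM in M1BP RNAi and 123 and 101 CPM in WT fat bodies, with −0.98 (SE 0.31, adjusted p = 0.103). In CPM both genes were lower in each M1BP RNAi library than in each WT library. In TPM the groups overlapped for Vha68-2, with 135 and 125 in M1BP RNAi and 153 and 129 in WT. At the other end, Vha100-1, VhaAC45 and VhaM9.7-c had log2 fold changes of −0.09, −0.05 and −0.07. When the fit held only the M1BP RNAi and WT libraries, VhaAC39-1 and Vha100-2 were called, 2 of 19 members tested, beside 20% of all genes.

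With ZKSCAN3 alone, no member passed the test against WT. By edgeR, 0 of 26 members were called at either threshold, and 0% of all genes were called at 0.05 and 0% at 0.001. No member (0) had an unadjusted p under 0.05, beside 3.28% of all genes, and DESeq2 called 0, beside 0.412%. The median log2 fold change was −0.08 for the members and −0.02 for all genes. Among the 16 abundant members the values ran from −0.36 for Vha100-2 to 0.25 for Vha100-1, with 4 positive and 12 negative.

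When ZKSCAN3 was expressed together with M1BP RNAi, the abundant members had higher values than under M1BP RNAi alone, again without a call. Of 26 members, 0 passed by edgeR at 0.05 or 0.001, and 0.281% and 0% of all genes were called. An unadjusted p under 0.05 was found for 3 members, beside 17.9% of all genes, and DESeq2 called 2, Vha36-1 as higher and Vha68-3 as lower, beside 9.86% of all genes. The M1BP RNAi libraries had 348 and 10 counts of Vha68-3. All 16 abundant members had positive values under TMM, DESeq2 size factors and TPM, with a median of 0.28 under TMM, where the median of all genes was −0.08. Vha36-1 had 61.1 and 63.6 CPM in M1BP RNAi + ZKSCAN3 and 40.3 and 46.2 CPM in M1BP RNAi fat bodies (log2 fold change 0.53, SE 0.16, adjusted p = 0.212). VhaAC39-1 had 83.1 and 86.2 CPM in M1BP RNAi + ZKSCAN3 and 58.3 and 65.9 CPM in M1BP RNAi fat bodies (0.45, SE 0.16, adjusted p = 0.254). Neither gene overlapped between the groups. In the same libraries the hemocyte markers summed to 128 and 64.8 TPM in M1BP RNAi + ZKSCAN3 and 1286 and 670.3 TPM in M1BP RNAi fat bodies. Among them NimC1 did not follow, with 405 and 1039 raw counts in M1BP RNAi + ZKSCAN3 and 446 and 654 in M1BP RNAi. The midgut markers summed to 1573 and 351 TPM in M1BP RNAi + ZKSCAN3 and 3018 and 1444 TPM in M1BP RNAi. Malpighian tubule markers summed to 279 and 483 TPM in M1BP RNAi + ZKSCAN3 and 252 and 220.0 TPM in M1BP RNAi. Within that list Lkr went the other way, with 49 and 64 raw counts in M1BP RNAi + ZKSCAN3 and 79 and 83 in M1BP RNAi. The part of these lists in the result was not tested.

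Against WT, M1BP RNAi + ZKSCAN3 also gave 0 calls among 26 members by edgeR at both thresholds, where 6.25% and 0% of all genes were called. It gave 0 members at an unadjusted p under 0.05, beside 23.4% of all genes, and 0 by DESeq2, beside 16.6%. The median was −0.07 for the members and 0.01 for all genes, and the 16 abundant members split into 5 positive and 11 negative values under TMM, whereas all 16 were positive on the TPM scale, with a median of 0.41 where all genes had 0.44. The interaction term, which asks whether ZKSCAN3 acted differently with and without M1BP RNAi, was called for 0 of 26 members by edgeR at both thresholds, where 0.0256% and 0% of all genes were called. It had an unadjusted p under 0.05 in 8 members, beside 17.8% of all genes, was called by DESeq2 for Vha68-3 and Vha100-3, both negative, beside 6.51% of all genes, and had a median of 0.41 over the 16 abundant members, 15 of them positive. These comparisons share their WT or M1BP RNAi libraries. In M1BP RNAi the low-level members Vha68-3, Vha100-3 and Vha16-3 had 348 and 10, 191 and 0, and 51 and 0 counts. Their high values in this group thus came from replicate 1, the library with 216 TPM of testis markers. The part of those markers in the DESeq2 calls of Vha68-3 and Vha100-3 was not tested.

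**Figure D2:**
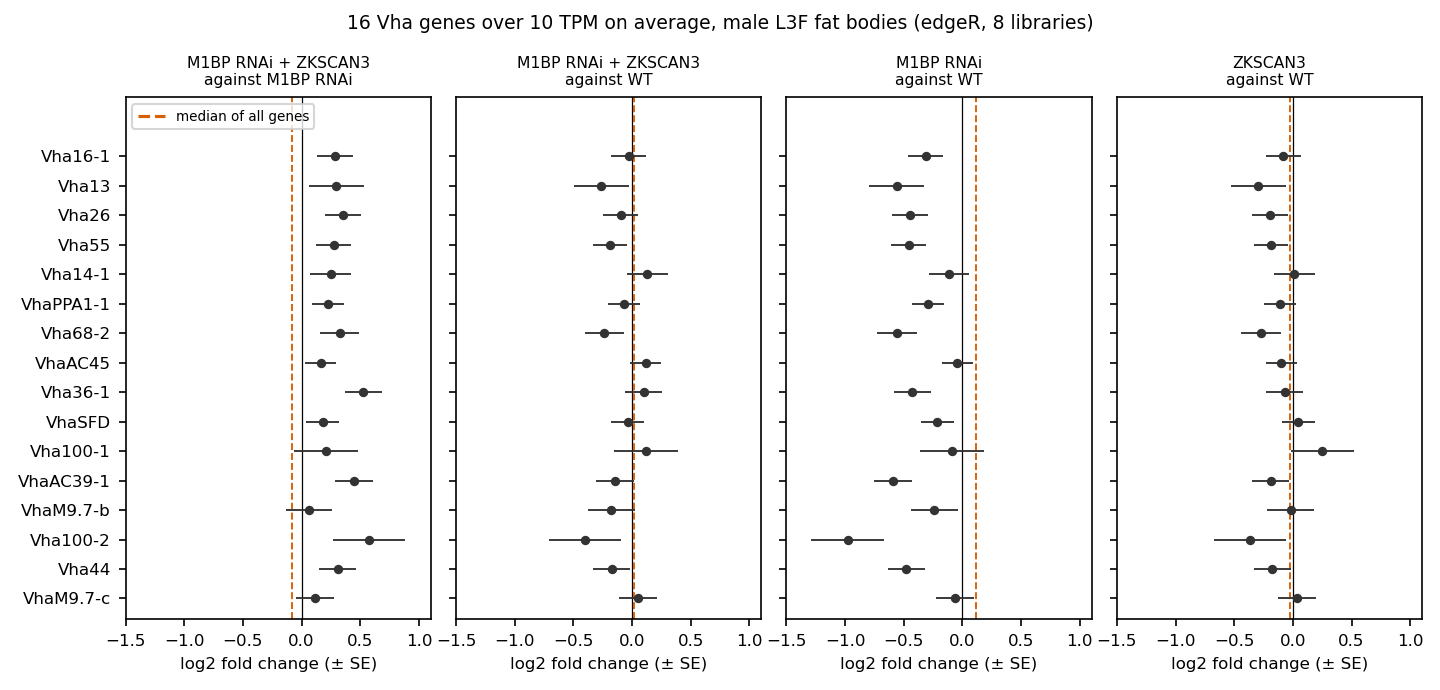
Log2 fold changes of the 16 Vha genes over 10 TPM in 4 comparisons of male L3F fat bodies, each point the edgeR estimate with its SE and the dashed line the median of all genes. In M1BP RNAi against WT all 16 points lay below 0, and in M1BP RNAi + ZKSCAN3 against M1BP RNAi all 16 lay above 0. None passed an adjusted p of 0.05, and on the TPM scale 9 of the 16 were positive in M1BP RNAi against WT.

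Between the female stages, single copies of subunits a and e passed the test and the other members tested did not. Vha100-2 was lower at L3W than at L3F, and Vha100-1 and VhaM9.7-c were higher. These were 3 calls among 20 members tested, below the 48% of 10720 genes called at 0.05 in this comparison, and at 0.001 the calls were 0 among members and 7.79% among all genes. DESeq2 called 5, adding VhaAC45RP as higher and Vha26 as lower, beside 47.6% of all genes. The median log2 fold change was −0.36 over the 20 members and −0.01 over all genes.

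Vha100-2 lies at chr3R:18390323-18399169 on the minus strand (dm6). It had 17.8 and 14.96 TPM at L3W and 39.3 and 72.7 TPM at L3F, and in males 44.6 and 69.2 TPM with M1BP RNAi + ZKSCAN3, 37.4 and 35.8 with M1BP RNAi, 30.7 and 52.7 with ZKSCAN3 and 60.1 and 46.1 in WT fat bodies. Both L3W libraries were below every other library, and the log2 fold change was −1.998 (SE 0.33, adjusted p = 0.0107). The summed Malpighian tubule, muscle and salivary gland markers were lower at L3W as well, while the midgut, testis and hemocyte sums overlapped between the stages. Within the salivary gland list, ng1, ng2 and ng3 had 0 counts in both L3W libraries. The L3W raw counts of Sgs1, Sgs3, Sgs4, Sgs5 and Sgs8 lay between the L3F libraries, with Sgs3 at 392 and 1497 against 18 and 24765, and Sgs7 overlapped. In the muscle list TpnC73F overlapped in raw counts. The Malpighian tubule markers summed to 95.1 and 71.0 TPM at L3W and 233 and 748 TPM at L3F. In males they summed to 279 and 483 TPM with M1BP RNAi + ZKSCAN3, 252 and 220.0 with M1BP RNAi, 158 and 394 with ZKSCAN3 and 402 and 299 in WT fat bodies. Both L3W libraries were the lowest of the 12 in this sum too, but its single genes differed. Uro, with the most raw counts of the list at L3F, had 758 and 987 at L3W and 8256 and 32149 at L3F. CapaR, Irk2, Irk3 and Alp4 also had fewer raw counts at L3W. SecCl had more (523 and 540 against 381 and 441), and Lkr and ZnT35C overlapped. Within each male group and at each female stage, the library with the higher Malpighian tubule sum also had the higher Vha100-2 level in TPM. In CPM this order was reversed in M1BP RNAi, where Vha100-2 had 53.3 in replicate 1 and 60.2 in replicate 2. The muscle markers summed to 18.6 and 25.4 TPM at L3W and 25.8 and 57.1 TPM at L3F. The part of these markers in the change of Vha100-2, and in its ratio to Vha100-1, was not tested.

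Vha100-1, at chr3R:29131193-29137980 on the plus strand, is known in flies for its role at synapses. It had 95.4 and 96.4 TPM at L3W and 64.6 and 62.5 TPM at L3F, with a log2 fold change of 0.36 (SE 0.08, adjusted p = 0.0261). With the replicate number as a block it was not called (adjusted p = 0.0614). In males it had 110.3 and 75.1 TPM in M1BP RNAi + ZKSCAN3, 78.6 and 78.5 with M1BP RNAi, 85.4 and 63.6 with ZKSCAN3 and 59.1 and 63.4 in WT fat bodies. The L3W and L3F libraries did not overlap, and in TPM M1BP RNAi + ZKSCAN3 replicate 1 was above both L3W libraries. The ratio of Vha100-1 to Vha100-2 in TPM was 5.37 and 6.44 at L3W, against 1.64 and 0.859 at L3F. Across the male libraries this ratio was 2.47 and 1.08 with M1BP RNAi + ZKSCAN3, 2.102 and 2.19 with M1BP RNAi, 2.78 and 1.21 with ZKSCAN3 and 0.984 and 1.38 in WT fat bodies. The L3W ratios exceeded those of every other library.

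VhaM9.7-c, a copy of subunit e at chr3L:4186018-4186865 on the minus strand, had 25.9 and 26.4 TPM at L3W and 14.8 and 14.2 TPM at L3F. Its log2 fold change was 0.62 (SE 0.11, adjusted p = 0.0142). In males it had 22.5 and 32.2 TPM in M1BP RNAi + ZKSCAN3, 25.6 and 23.04 with M1BP RNAi, 20.3 and 18.5 with ZKSCAN3 and 18.5 and 18.7 in WT fat bodies. The replicates were close at both female stages and the stages did not overlap. The more abundant copy of the same subunit, VhaM9.7-b, had 74.1 and 70.2 TPM at L3W and 45.03 and 72.9 TPM at L3F and a log2 fold change of 0.07 (SE 0.25, adjusted p = 0.846).

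**Figure D3:**
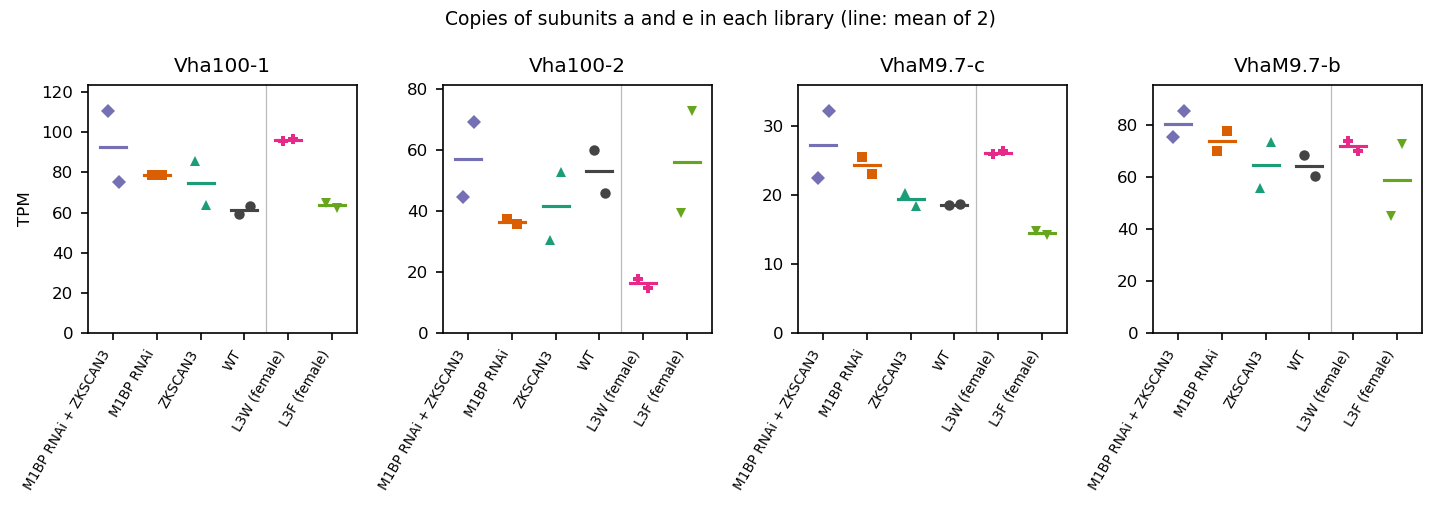
TPM of 2 copies of subunit a (Vha100-1, Vha100-2) and 2 of subunit e (VhaM9.7-c, VhaM9.7-b) by group, each point a library and each line the mean of 2. At L3W, Vha100-2 was at 17.8 and 14.96 TPM, below every other library, while Vha100-1 stood at 95.4 and 96.4 TPM.

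The calls changed when single libraries were left out. The number of members called was 14 without L3F replicate 1 (2 higher and 12 lower), 3 without L3F replicate 2 (Vha68-1 and VhaM9.7-c higher, Vha100-2 lower), 0 without L3W replicate 1 and 1 without L3W replicate 2 (VhaAC45RP higher). In the same order, 38.7%, 39.8%, 20.1% and 21.2% of all genes were called. The log2 fold change of Vha100-2 ranged over −2.35 to −1.52, that of Vha100-1 over 0.31 to 0.44 and that of VhaM9.7-c over 0.56 to 0.69. Over the same settings the median of the members tested ranged from −0.68 to −0.0016, the value without L3F replicate 2, the library with 748 TPM of Malpighian tubule markers, whose part in the result was not tested.

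The other abundant members did not pass in females. Vha26 had 111 and 103 TPM at L3W and 106 and 163 TPM at L3F, a log2 fold change of −0.56 (SE 0.22, adjusted p = 0.109). VhaSFD had 85.1 and 81.5 TPM at L3W and 79.9 and 102 TPM at L3F, with −0.35 (SE 0.14, adjusted p = 0.109). Vha16-1 had 482 and 435 TPM at L3W and 387 and 540.4 TPM at L3F, with −0.24 (SE 0.19, adjusted p = 0.347). In TPM the L3W values of all 3 genes lay below L3F replicate 2, and those of VhaSFD and Vha16-1 lay between the L3F libraries. In CPM, the scale of the test, the L3W values of Vha26 and VhaSFD lay below both L3F libraries. Of the 16 abundant members, 13 had negative and 3 positive values under TMM, and 11 and 5 on the TPM scale. Vha68-1, the minor copy of subunit A, had 6.21 and 5.55 TPM at L3W and 1.72 and 4.70 TPM at L3F (log2 fold change 0.65, SE 0.50, adjusted p = 0.339).

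The 15 members with a median under 1 TPM were detected unevenly, and 9 of them had over 50% of their counts in 1 library while 6 did not. Together they had 61 and 92 counts with M1BP RNAi + ZKSCAN3, 973 and 60 with M1BP RNAi, 104 and 178 with ZKSCAN3 and 52 and 32 in WT fat bodies, and 152 and 39 at L3W, against 39 and 291 at L3F. M1BP RNAi replicate 1 thus held 46.9% of their counts, and 11 of the 15 had their highest count there. It was also the library with 216 TPM of testis markers, and L3F replicate 2, the next in counts, had 46.3 TPM of them. In the other groups the same 20 markers summed to 8.70 and 5.42 TPM with M1BP RNAi + ZKSCAN3, 13.5 and 28.95 with ZKSCAN3, 8.54 and 2.36 in WT fat bodies and 16.8 and 21.5 at L3W. At L3W the list was led by Mst87F (234 and 335 raw counts) and topi (306 and 472). There betaTub85D had 2 and 0 raw counts, against 1989 in M1BP RNAi replicate 1 and 419 in L3F replicate 2. The part of those markers in the counts was not tested.

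In 6 of these genes, 1 group had at most 3 counts in both libraries where another had over 3 counts in each. The share of all genes with such a pattern was not computed, so the 6 cannot be set against a background. A count of 3 corresponds to 0.0305 to 0.0590 CPM, and this limit covers counting error only. Vha100-3, a copy of subunit a, had 6 and 2 counts in M1BP RNAi + ZKSCAN3, 191 and 0 with M1BP RNAi, 28 and 17 with ZKSCAN3 and 0 and 0 in WT fat bodies, and 0 and 0 at L3W and 0 and 26 at L3F. Vha16-3, a copy of subunit c, had 7 and 2 counts in M1BP RNAi + ZKSCAN3, 51 and 0 with M1BP RNAi, 12 and 22 with ZKSCAN3 and 0 and 0 in WT fat bodies, and 0 and 0 at L3W and 0 and 43 at L3F. Vha14-2, a copy of subunit F, had 2 and 0 counts in M1BP RNAi + ZKSCAN3, 51 and 2 with M1BP RNAi, 10 and 20 with ZKSCAN3 and 2 and 0 in WT fat bodies, and 4 and 2 at L3W and 0 and 38 at L3F. These 3 genes were over 3 counts in both ZKSCAN3 libraries and at most 3 in both WT libraries, and each was higher still in M1BP RNAi replicate 1. Vha36-2, a copy of subunit D, had 4 and 0 counts in M1BP RNAi + ZKSCAN3, 58 and 2 with M1BP RNAi, 6 and 11 with ZKSCAN3 and 0 and 2 in WT fat bodies, and 0 and 2 at L3W and 2 and 4 at L3F. VhaPPA1-2, a copy of subunit c'', had 6 and 8 counts in M1BP RNAi + ZKSCAN3, 34 and 6 with M1BP RNAi, 0 and 8 with ZKSCAN3 and 0 and 3 in WT fat bodies, and 1 and 1 at L3W and 2 and 3 at L3F. VhaAC45RP, an accessory protein related to VhaAC45, had 0 and 4 counts in M1BP RNAi + ZKSCAN3, 3 and 6 with M1BP RNAi, 2 and 1 with ZKSCAN3 and 0 and 3 in WT fat bodies, and 102 and 4 at L3W and 2 and 2 at L3F. Vha36-2 shared the pattern of Vha100-3, VhaPPA1-2 was over 3 counts in every library with the M1BP RNAi transgene, and VhaAC45RP rested on 1 L3W library.

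**Figure D4:**
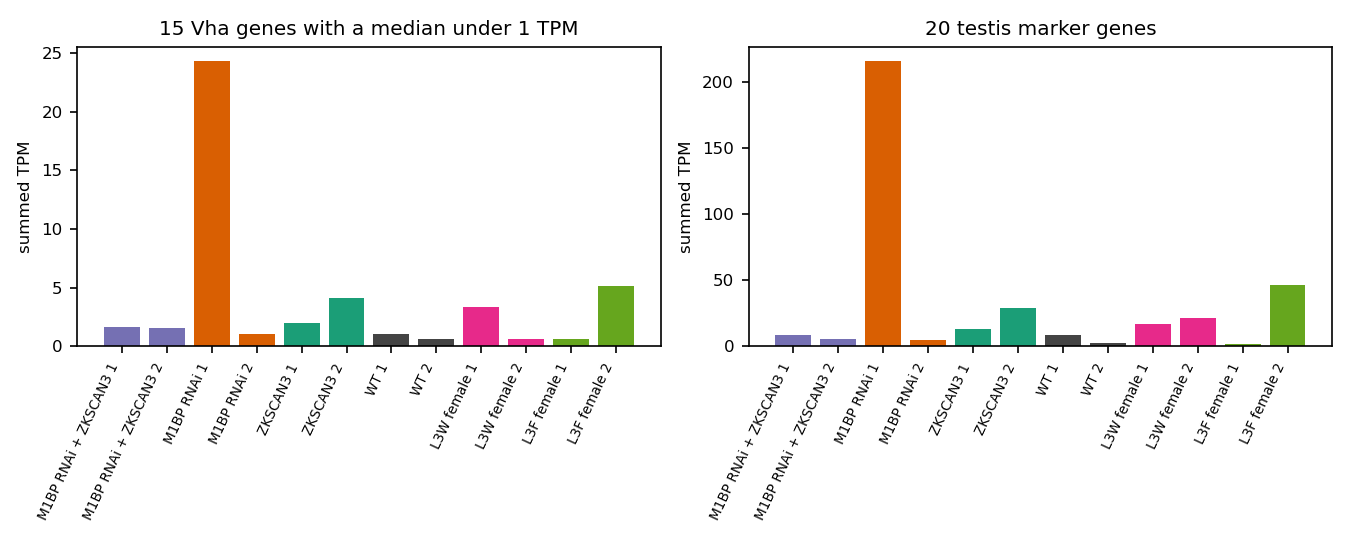
Summed TPM of the 15 Vha genes with a median under 1 TPM (left) and of 20 testis marker genes (right), 1 bar a library, coloured by group. M1BP RNAi replicate 1 was the highest bar in both panels, with 24.3 TPM for the Vha genes and 216 TPM for the markers.

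Among the other low members, Vha68-3, a copy of subunit A, had 348 of its 562 counts in M1BP RNAi replicate 1, Vha16-5 had 84 of 127 and VhaAC39-2 had 71 of 158. VhaM9.7-d had 23 counts there and 0 in every other library. Vha36-3, in contrast, was spread evenly, with 6 to 40 counts a library. Vha100-4 had at most 25 counts and Vha16-4 at most 6. Reads could not be told apart where exons overlapped another gene: 84.5% of the exon bases of Vha16-2 and 18.1% of those of Vha100-5 are shared with an antisense gene, and counting ignored strand. Vha44 shares 3.68% of its exon bases with Hmgs. Vha68-1 and Vha68-2 shared 3.78 and 3.87% of their 50-base stretches with another member, the highest shares in the group.

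Other lysosomal genes gave a background for the pump. A list of 21 genes, of assembly factors, the mTORC1 docking complex, chloride channels, cathepsins and lysosomal membrane proteins, had 12 higher and 0 lower at L3W against L3F, where 48% of all genes were called in either direction, and a median log2 fold change of 0.67. The lysosomal proteases led. The aspartic protease cathD had 2772 and 2629.8 TPM at L3W and 377 and 431 TPM at L3F (log2 fold change 2.51, SE 0.12, adjusted p = 0.000571). The cysteine protease CtsB had 285 and 240.0 TPM at L3W and 48.4 and 54.3 TPM at L3F (2.13, SE 0.15, adjusted p = 0.00107). CtsL1 and CtsF rose by 2.11 and 1.66 on the log2 scale. Of the Ragulator subunits, which dock mTORC1 on the lysosome together with the pump, Lamtor3 (1.56), Lamtor1 (1.06), Lamtor4 (1.05) and Lamtor5 (0.47) rose, as did the Rag GTPase RagA-B (0.53). The chloride transporter genes ClC-c (0.998) and ClC-b (0.47) and the membrane glycoprotein gene Lamp1 (0.998) rose too. Without L3W replicate 1, and likewise without L3W replicate 2, 7 of the 12 calls were left, and those of Lamtor5, RagA-B, ClC-b, Lamp1 and Lamtor4 were lost. Lamtor5 was also not called with the replicate block (adjusted p = 0.0592) or without L3F replicate 1 (0.0619) or 2 (0.0654), nor was ClC-b without L3F replicate 2 (0.0719). Mitf, the fly counterpart of the lysosomal regulator TFEB, had 12.8 and 14.9 TPM at L3W and 8.97 and 9.58 TPM at L3F (0.35, SE 0.11, adjusted p = 0.0565).

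In males the same list gave few calls. In M1BP RNAi against WT 1 of 21 passed, beside 8.22% of all genes, and this was Lamtor5, with 18.7 and 17.42 TPM in M1BP RNAi and 26.2 and 23.2 TPM in WT fat bodies (log2 fold change −0.90, SE 0.15, adjusted p = 0.0218). In M1BP RNAi + ZKSCAN3 against WT 1 of 21 passed, beside 6.25% of all genes, and this was RagC-D, with 47.5 and 42.7 TPM in M1BP RNAi + ZKSCAN3 and 58.2 and 53.4 TPM in WT fat bodies (−0.79, SE 0.16, adjusted p = 0.0418). Lamtor5 was below both WT libraries in each M1BP RNAi library, as was RagC-D in each M1BP RNAi + ZKSCAN3 library. Both log2 fold changes are on the TMM scale, and the TPM values show smaller falls. The call of Lamtor5 was lost without WT replicate 1, WT replicate 2 or M1BP RNAi replicate 1 (adjusted p 0.147 to 0.168), and that of RagC-D without WT replicate 1, WT replicate 2 or M1BP RNAi + ZKSCAN3 replicate 2 (0.259 to 0.263). The other male comparisons and the interaction called 0 of 21.

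Peaks of ZKSCAN3 in S2 cells lay at the starts of the abundant members. Within 500 bp of the annotated start, 20 of 33 members had a ZKSCAN3 peak (60.6%, against 46.9% of all genes) and 15 had a ZKSCAN4 peak (45.5%, against 30.6%). Split by level in the fat body, 16 of 16 members over 10 TPM and 4 of the other 17 had a ZKSCAN3 peak, beside 80.2% of all genes over 10 TPM. For ZKSCAN4 the counts were 11 of 16 and 4 of 17, beside 54.5% of all genes over 10 TPM. All 15 members with a ZKSCAN4 peak also had a ZKSCAN3 peak. The 5 with ZKSCAN3 alone were Vha14-1, VhaPPA1-1, VhaAC45, Vha36-1 and VhaM9.7-c. The 4 lower members with peaks were Vha68-1, Vha16-5, VhaAC39-2 and VhaM9.7-a, and 3 of these have another gene starting within 500 bp.

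All 20 ZKSCAN3 peaks covered the start base itself, as did 11 of the 15 ZKSCAN4 peaks. The ZKSCAN3 scores at members ran from 61.8 to 166, with a median of 115.1 where the whole list had 77.1. The highest was at Vha68-2 (chr2L:12974002-12975599, rank 138 of 8991), followed by Vha55 (chr3R:12626561-12630056, score 157). The ZKSCAN4 scores ran from 9.22 to 76.2, with a median of 27.9 where the list had 27.5. Its highest member peak was at Vha100-2 (chr3R:18396695-18400932, score 76.2), while Vha68-2 had 17.7. Both whole lists also hold peaks away from gene starts, and the scores of peaks at other starts were not compared. The peak widths, 345 to 8756 bp, can span more than 1 gene, and 10 of the 20 members with a ZKSCAN3 peak and 7 of the 15 with a ZKSCAN4 peak had another gene starting within 500 bp, such as mTor beside Vha68-1, noi beside Vha26 and COX8 beside VhaM9.7-b. Of the 2 ZKSCAN3 ChIP libraries, 1 carries a genotype label that names ZKSCAN4, and only the merged list was used.

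**Figure D5:**
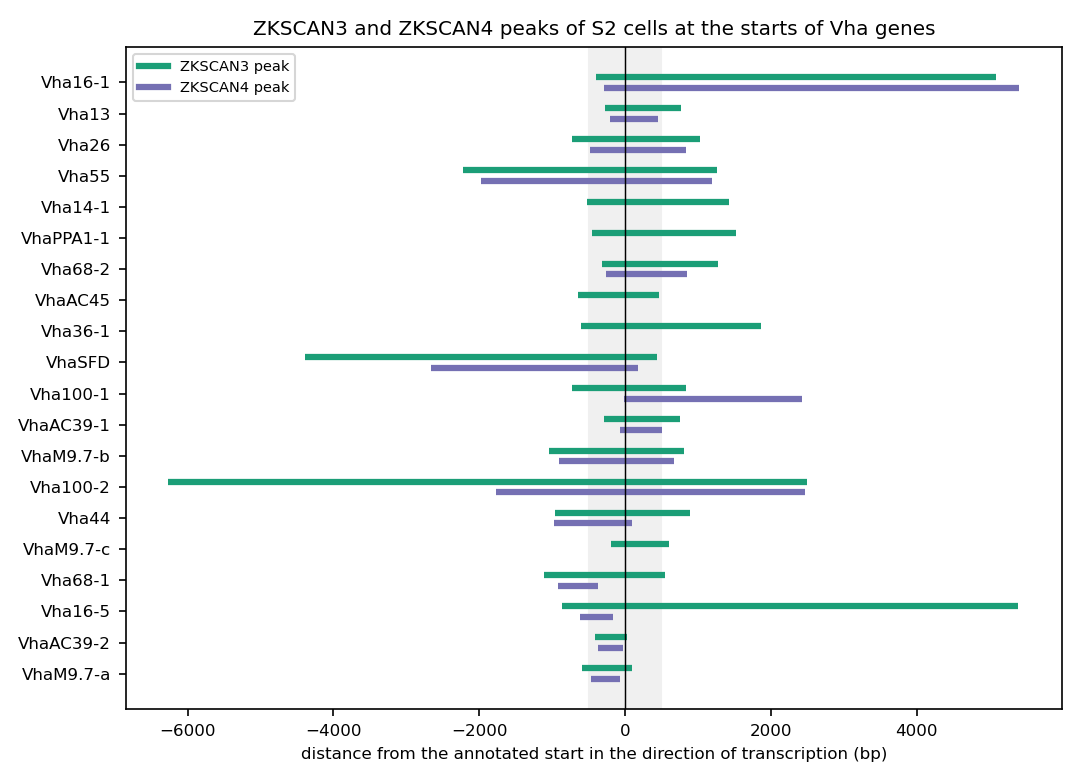
Extent of ZKSCAN3 (green) and ZKSCAN4 (violet) peaks around the annotated starts of the 20 Vha genes with a ZKSCAN3 peak, in bp along the direction of transcription, with the window of 500 bp on either side shaded. Every ZKSCAN3 peak spanned the start, and 5 genes had no ZKSCAN4 peak.

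The promoter stretches of abundant members whose starts lay under these peaks are shown so that the elements beside the start can be read. They run from 200 bases before the start to the base 19 after it, 5′ to 3′ on the gene's strand, and were read from the RefSeq Release 6 (dm6) genome. Capitals mark a match to a searched element on either strand. The genes are Vha13 (chr3R:19644367-19644586, minus strand), Vha26 (chr3R:5591563-5591782, plus), Vha55 (chr3R:12627810-12628029, minus) and VhaPPA1-1 (chr3R:14904042-14904261, minus). None of the stretches reached an exon of another gene.
Vha13: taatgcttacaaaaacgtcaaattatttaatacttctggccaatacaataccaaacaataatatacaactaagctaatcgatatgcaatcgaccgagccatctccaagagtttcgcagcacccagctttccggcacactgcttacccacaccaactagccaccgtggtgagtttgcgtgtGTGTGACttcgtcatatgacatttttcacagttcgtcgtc
Vha26: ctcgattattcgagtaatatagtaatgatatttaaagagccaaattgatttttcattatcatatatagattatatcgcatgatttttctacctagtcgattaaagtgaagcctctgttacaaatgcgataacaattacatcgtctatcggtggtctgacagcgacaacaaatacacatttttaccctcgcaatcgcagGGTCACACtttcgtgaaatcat
Vha55: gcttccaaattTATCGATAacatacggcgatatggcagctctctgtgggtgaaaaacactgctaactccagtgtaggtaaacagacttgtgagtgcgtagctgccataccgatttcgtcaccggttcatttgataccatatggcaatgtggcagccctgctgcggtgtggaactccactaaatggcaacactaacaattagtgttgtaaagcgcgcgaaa
VhaPPA1-1: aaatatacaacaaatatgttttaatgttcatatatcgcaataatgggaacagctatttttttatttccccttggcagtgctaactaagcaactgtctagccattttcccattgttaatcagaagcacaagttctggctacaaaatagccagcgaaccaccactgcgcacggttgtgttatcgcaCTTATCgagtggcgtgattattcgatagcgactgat
A shorter stretch around the start of Vha100-1, chosen after its values were seen, holds the same element at the same place as Vha26 (chr3R:29131173-29131212, plus strand, 20 bases before the start to the base 19 after it).
Vha100-1: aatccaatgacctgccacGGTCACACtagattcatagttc

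Motif 1, the element that M1BP binds, was searched as GGTCACAC on both strands from 250 bases before the start to 49 after it. It was found in 4 of 33 members, beside 6.37% of 17420 promoters. In Vha26 and Vha100-1 it lay from 2 bases before the start to 5 after it. In Vha14-1 it lay at −105 to −98, and in Vha68-2 at −163 to −156 on the opposite strand. All 4 belong to the 16 abundant members, and 12.4% of promoters of genes over 10 TPM held the element. Without its first letter, as GTCACAC, it was found in 6 members, beside 8.1% of promoters, adding VhaAC45 and Vha13, where it reads on the opposite strand at −20 to −14 in the stretch above.

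The palindromic E-box TCACGTGA, the kind of site that TFEB recognises in mammalian lysosomal genes, was found in 1 member, Vha44, at −48 to −41, beside 0.149% or 26 of all promoters. The DRE element TATCGATA was found in Vha55 at −189 to −182 and in VhaSFD at −23 to −16, beside 7.7% of promoters. The GATA element GATAAG was found in 6 members (Vha100-4, Vha100-5, Vha16-4, Vha36-2, VhaM9.7-d and VhaPPA1-1), beside 18.1% of promoters. Of these only VhaPPA1-1, where it lies at −16 to −11 on the opposite strand and so appears above as its complement, was abundant in the fat body. Of the 4 elements, TATCGATA and GATAAG can share the letters GATA, and the others share no more than TCAC. A match describes these letters only.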

How the data were processed

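The authors mapped paired-end reads to dm6 by Subread and obtained gene totals over exons by featureCounts (FlyBase r6.19), without strand and with each mate counted on its own. Values were deposited as raw counts for 12 libraries, and TPM was computed here from these deposited counts and exon lengths. Peaks were called with MACS2, and each deposited list carries a score per peak whose meaning is not given in the sources used here, with the ChIP replicates merged and regions of high occupancy apparently kept. The deposited tables of the authors' own comparisons (log2 fold changes and p-values) were not used.

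Groups followed the sample labels. Counts were tested with edgeR 4.0.16 (R 4.3.3) by quasi-likelihood with TMM scaling and a filter on low counts (filterByExpr), in 1 fit over 8 male libraries (11723 genes) and 1 over 4 female libraries (10720 genes), with Benjamini-Hochberg adjustment over all genes and a call at an adjusted p under 0.05. The SE of a log2 fold change was taken from the F statistic. DESeq2 1.42.0, other scalings, filters, thresholds, a replicate block and each library left out were alternatives. The script was tested on simulated counts with 200 changed genes. Gene positions were the same in the annotation at hand for 99.26% of identifiers. A peak was assigned to a start when it overlapped the window of 500 bp on either side by at least 1 base. The depth, 53462739 to 76798943 counts, put a limit of 3 counts at 0.0305 to 0.0590 CPM.

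Values were given in every library for the leading copy of each subunit, for each member called, and for members at up to 3 counts in both libraries of 1 group and over 3 in each library of another. Promoters were printed for the 4 members of highest mean TPM with a peak at the start, among those not on chromosome arm 2R. Vha16-1 and Vha14-1 lie on that arm and were not printed. A shorter stretch of Vha100-1 was added. The members, lists and thresholds were chosen with earlier results of these data known. No protein sequences were used here.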

Additional observations from a re-analysis of the deposited data

How the results depend on the processing

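No called value of the Vha members, of M1BP or of the lysosomal list changed sign under the alternatives run, and those for M1BP and the list were chosen after seeing the data. With DESeq2, the members called were 8 in M1BP RNAi against WT, 2 in M1BP RNAi + ZKSCAN3 against M1BP RNAi, 2 in the interaction and 5 in L3W against L3F, where edgeR called 0, 0, 0 and 3. Of all genes DESeq2 called 23.9%, 9.86%, 6.51% and 47.6% in these comparisons. A fit of only M1BP RNAi and WT libraries called 2 members, with a median of −0.43 over the 19 tested. With all genes of at least 1 count, which adds the low members, the medians of M1BP RNAi against WT and of the interaction were −0.093 and 0.0875. At 0.001 the female comparison called 0 members, and M1BP (−1.27, adjusted p = 0.00776) did not pass, while 2 lysosomal genes did at L3W and 0 in males. With DESeq2 the list had 3 calls in M1BP RNAi against WT and 2 in M1BP RNAi + ZKSCAN3 against either WT or M1BP RNAi. A fit of only the groups compared gave 3 in M1BP RNAi against WT and 0 in M1BP RNAi + ZKSCAN3 against WT, where the fit of all genes with at least 1 count also gave 0.

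With each library left out in turn, where a lone library is assumed to vary like the other groups, members called ranged over 0 to 14 in L3W against L3F, 0 to 3 in M1BP RNAi against WT and 0 to 2 in the interaction. The medians ranged over −0.68 to −0.0016 in L3W against L3F and over −0.098 to 0.0094 in M1BP RNAi + ZKSCAN3 against WT. The value of M1BP in M1BP RNAi against WT ranged over −1.41 to −1.21. Of the lysosomal list, 7 to 11 genes were called in L3W against L3F, 0 to 1 in M1BP RNAi against WT and 0 to 2 in M1BP RNAi + ZKSCAN3 against WT.

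The replicate numbers come from the labels alone. Same-numbered male libraries deviated together with correlations of −0.217 to 0.444 over 6 pairs of groups, and the female ones with −0.085. A replicate block called 2 members in L3W against L3F, with Vha100-1 at an adjusted p of 0.0614, and 0 in each male comparison.

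With at least 50% of the peak inside the window, 13 members had a ZKSCAN3 peak and 9 a ZKSCAN4 peak, beside 25.2% and 17.5% of all genes. With peaks at or above the median score, 8 had a ZKSCAN4 peak, beside 17% of all genes. The E-box without its flanks (CACGTG) was found in 3 members, beside 4.21% of promoters. The causes of these differences were not tested.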

Other observations

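Another pump gene stood outside the group by its symbol. ATP6AP2, formerly VhaM8.9, which encodes an accessory protein of the V-ATPase and is the fly counterpart of the prorenin receptor, had 149.9 and 162 TPM with M1BP RNAi + ZKSCAN3, 141 and 132 with M1BP RNAi, 111 and 128 with ZKSCAN3 and 139 and 120.2 in WT fat bodies, and 152 and 143 TPM at L3W and 106 and 153 TPM at L3F in females. Its level was thus in the range of the abundant members, and L3F replicate 2 again exceeded L3F replicate 1. CG5421, which carries the synonym VhaAC45-2, did not exceed 0.737 TPM in any library.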
